A study of Mus musculus with 24 samples.

Results

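Skeletal muscle of control mice was compared at baseline with the 3 other control tissues of the same study. The comparison took the 12 control libraries of the 24 libraries of the series, 3 each from gastrocnemius muscle (GM), liver, inguinal white adipose tissue (iWAT) and hypothalamus, and asked which transcripts mark muscle before any genotype enters. All 12 came from C57BL/6 Ctrl mice of the genotype Crif1flox/flox, aged 8 weeks and fed chow, in which both copies of Crif1 (Gadd45gip1, a factor of mitochondrial translation) are flanked by loxP sites but no Cre transgene is named. The other 12 libraries, from LKO mice that delete Crif1 in hepatocytes through Alb-Cre, were not used. Nothing in the labels ties the 4 tissues to shared animals or says whether RNA was pooled, so p-values measure the spread between these libraries. Bulk tissue was sequenced, so fewer cells of a type and less RNA per cell cannot be told apart.

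A skeletal muscle fibre is a long syncytium packed with sarcomeres, in which thick filaments of myosin slide along thin filaments of actin anchored at Z-discs. Calcium released from the sarcoplasmic reticulum acts through troponin and tropomyosin to switch the thin filament on, and ATP is restored from phosphocreatine, glycogen and oxidation. Many of these parts are encoded by members of gene families whose other members serve non-muscle cells. The GM of the mouse consists mostly of fast fibres.

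Values are FPKM, which corrects fragment numbers for transcript length and library size, so levels of different genes are per length. Differences are in log2(FPKM + 1), and understate the change of genes that are low in one tissue. Of the 24532 genes in the table, 15320 reached 1 FPKM in at least 3 of the 12 libraries and were tested in a single limma fit. A gene was called enriched in muscle when it was higher by at least 2 on this scale, with an adjusted p under 0.05, against each of the 3 other tissues, and lowest when it was lower by the same rule. The inferred depth of the libraries lay between 4.47 and 8.09 gigabases.

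The libraries matched their tissue labels by marker lists, with exceptions that touch the comparison. A list of 10 transcripts of muscle fibres summed to between 116670 and 127499 FPKM in muscle, to between 6.64 and 18.3 in liver and to between 34.1 and 43.6 in hypothalamus. In iWAT they summed to 667 FPKM in Ctrl 1 but to 110 and 72.8 in Ctrl 2 and Ctrl 3, so 1 fat library stood apart, and its part in the results below was not tested beyond leaving it out. Without iWAT Ctrl 1, 376 genes were enriched in place of 373. A list of 10 hepatocyte markers summed to 356, 50.7 and 268 FPKM in muscle, to 841, 1283 and 2108 in iWAT, where 3 of the 10 reached 1 FPKM in each library, and to 6.84, 8.48 and 51.5 in hypothalamus. Hypothalamus Ctrl 3 thus stood apart from the other two, with 7 markers at or above 1 FPKM against 2. Alb (albumin) was at 167, 13.7 and 125 FPKM in muscle Ctrl 1 to 3, which is 0.411%, 0.0336% and 0.306% of its mean in liver, and at 0.0657, 0.301 and 10.98 FPKM in hypothalamus. In iWAT Alb was at 23.8, 13.1 and 12.8 FPKM, so most of the hepatocyte sum there came from other members, whose source was not tested. A list of 10 adipocyte markers summed to 759, 975 and 389 FPKM in muscle against at least 46066 in iWAT. Tendon markers summed to 66.2, 75.8 and 104 FPKM in muscle, at most 13.1 in iWAT and 66.8 to 90.6 in hypothalamus. Of these markers 3 of 10 (Tnmd, Thbs4 and Kera) were enriched, beside 2.43% of all tested genes. Of the 9 tested smooth muscle and pericyte markers 1 was enriched, beside the same 2.43%. It was Des (desmin), which is also a Z-disc gene of muscle fibres and made up most of a sum of 1147 to 1291 FPKM beside at most 179 elsewhere. Replicate muscle libraries correlated at Pearson's r of 0.988 to 0.991 across the tested genes, and muscle with iWAT at 0.680 to 0.747, with liver at 0.514 to 0.559 and with hypothalamus at 0.499 to 0.532. Genes are not independent replicates in these values.

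**Figure D1:**
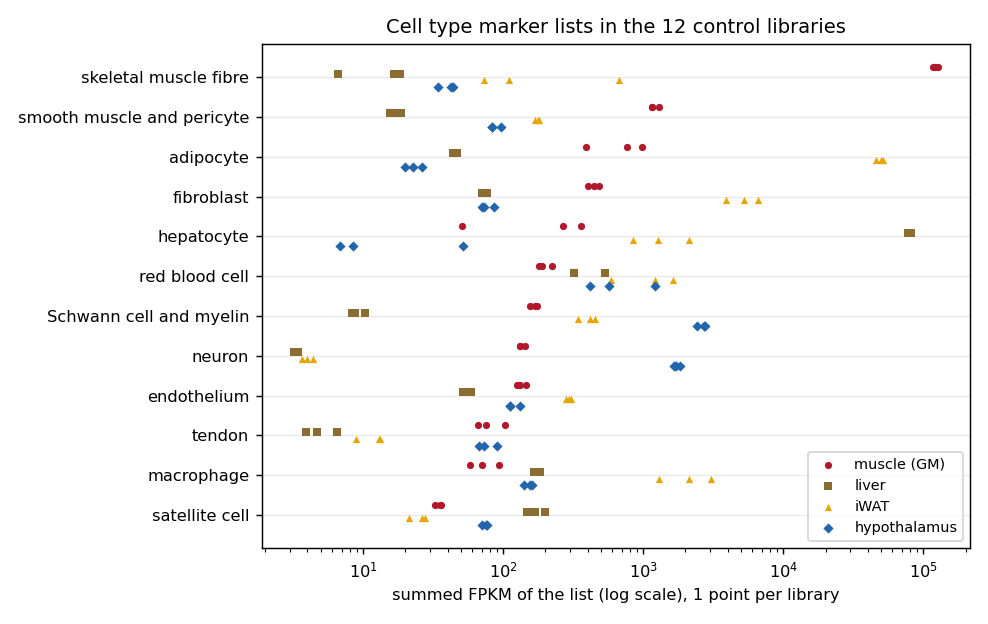
Summed FPKM of 12 marker lists of cell types on a log scale, with 1 point for each of the 12 control libraries, coloured by tissue. Muscle fibre transcripts reach at least 116670 FPKM in the muscle libraries and at most 667 elsewhere, in iWAT Ctrl 1.

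The most abundant enriched transcripts with a single start in the RefSeq promoter table (GRCm38.p6) were Acta1, Ckm, Tpm1, Mylpf, Tnnc2 and Myl1. For Acta1 (skeletal alpha-actin), Ckm (muscle creatine kinase), Mylpf (fast regulatory light chain) and Myl1 (fast alkali light chain), which hold at least 1 of the motifs marked here, the 250 bases before that start are shown 5′ to 3′ on the strand of the gene, because these are the regions next to the transcripts on which the comparison turns. Capitals mark TATAAA, the E-box CAGCTG or the CArG box, on either strand.
Acta1: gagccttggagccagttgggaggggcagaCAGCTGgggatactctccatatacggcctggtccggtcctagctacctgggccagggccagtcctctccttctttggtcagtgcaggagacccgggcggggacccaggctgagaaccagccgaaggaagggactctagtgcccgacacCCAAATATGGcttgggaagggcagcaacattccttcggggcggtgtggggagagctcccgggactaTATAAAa
Ckm: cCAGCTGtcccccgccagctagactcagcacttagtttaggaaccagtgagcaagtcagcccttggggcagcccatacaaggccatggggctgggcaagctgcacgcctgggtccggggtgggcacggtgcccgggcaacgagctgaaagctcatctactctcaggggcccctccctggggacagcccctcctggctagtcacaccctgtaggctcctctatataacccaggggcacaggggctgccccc
Mylpf: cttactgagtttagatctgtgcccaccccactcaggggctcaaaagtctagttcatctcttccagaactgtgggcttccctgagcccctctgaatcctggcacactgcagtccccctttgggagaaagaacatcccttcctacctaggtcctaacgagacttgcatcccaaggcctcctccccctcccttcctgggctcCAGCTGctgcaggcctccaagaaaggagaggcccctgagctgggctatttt
Myl1: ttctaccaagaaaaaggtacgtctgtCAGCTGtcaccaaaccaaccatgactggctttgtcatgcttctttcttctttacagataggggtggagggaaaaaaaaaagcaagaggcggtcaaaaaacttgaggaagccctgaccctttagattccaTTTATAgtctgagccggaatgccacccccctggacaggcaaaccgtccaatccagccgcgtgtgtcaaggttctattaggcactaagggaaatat
They lie at chr8:123894776-123895025 (minus strand), chr7:19410844-19411093 (plus strand), chr7:127211358-127211607 (plus strand) and chr1:66945057-66945306 (minus strand). The Mylpf window lies inside the span that the deposited tables give for the gene. Acta1 holds the 3 elements together, with TATAAA ending next to the start, and Myl1 holds TATAAA and CAGCTG. The windows of Tpm1 and Tnnc2 hold none of these 3 motifs.

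The same windows were read for all genes with an entry, 280 of the 373 enriched genes (347 promoters) and 11942 of the 15320 tested genes (15242 promoters). The MEF2 site was present in 12.4% of the promoters of enriched genes and in 1.82% of those of tested genes. CAGCTG, an E-box of the kind bound by myogenic bHLH factors, was present in 24.8% and 12.7%. The CArG box, which serum response factor binds, was present in 4.03% and 1.16%, and TATAAA in 15.6% and 7.39%. The general E-box CANNTG, which includes CAGCTG, was present in 75.2% and 59.0%, and CATTCC, the core of the MCAT element, in 16.4% and 11.0%. Over all 32851 promoters of the table the shares were 2.92% for the MEF2 site, 13.0% for CAGCTG, 1.47% for the CArG box, 12.4% for TATAAA, 66.2% for CANNTG and 12.6% for CATTCC. Among the enriched genes with a mean of at least 100 FPKM in muscle (141 promoters), CAGCTG was present in 31.2%, the CArG box in 7.09% and the MEF2 site in 9.22%. Both strands were searched, a MEF2 site can overlap TATAAA, and a match is a string of letters and not a measured binding site.

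Of the 15320 tested genes, 373 (2.43%) were enriched in muscle and 117 (0.764%) were lowest there. The enriched genes included 29 with a mean of at least 1000 FPKM in muscle and 142 with at least 100, out of 527 tested genes with that mean. For 123 of the enriched genes each of the 9 other libraries was under 1 FPKM. The enriched genes held 53.2% to 55.5% of the summed FPKM of a muscle library and at most 1.11% of any other, which the rule that chose them makes likely. Against single tissues, with a limit of 1 on the log2 scale, muscle was higher than liver for 2939 genes (19.2%) and lower for 2506 (16.4%). It was higher than iWAT for 1236 (8.07%) and lower for 4742 (31%), and higher than hypothalamus for 1475 (9.63%) and lower for 7009 (45.8%). Against the mean of the 3 tissues, 1339 genes (8.74%) were higher and 4720 (30.8%) lower. These splits depend on scaling. The median difference of all tested genes was -0.60 as deposited and -0.23 after median-ratio scaling, and the latter gave 2180 higher and 3009 lower against the mean, 2368 and 2610 against iWAT, 3004 and 3905 against hypothalamus, and 2909 and 2912 against liver. With quantile normalization, where the median was -0.14, the split was 2169 and 2697 against the mean, 2173 and 2538 against iWAT and 3640 and 3388 against hypothalamus.

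The muscle libraries were dominated by few transcripts. The 10 most abundant genes held 33.5%, 35.2% and 34.5% of the summed FPKM of muscle Ctrl 1, 2 and 3. The share was 23.0% to 24.5% in liver, 16.1% to 17.5% in iWAT and 3.95% to 5.03% in hypothalamus, so the tissues did not overlap. Between 40 and 56 genes made up 50% of the FPKM in muscle. In liver 68 to 84 genes did so, in iWAT 292 to 314 and in hypothalamus 837 to 988. The most abundant transcript was Acta1 in muscle (4.72% to 5.78%), Alb in liver, Cfd (adipsin) in iWAT and Ptgds (prostaglandin D2 synthase) in hypothalamus.

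**Figure D2:**
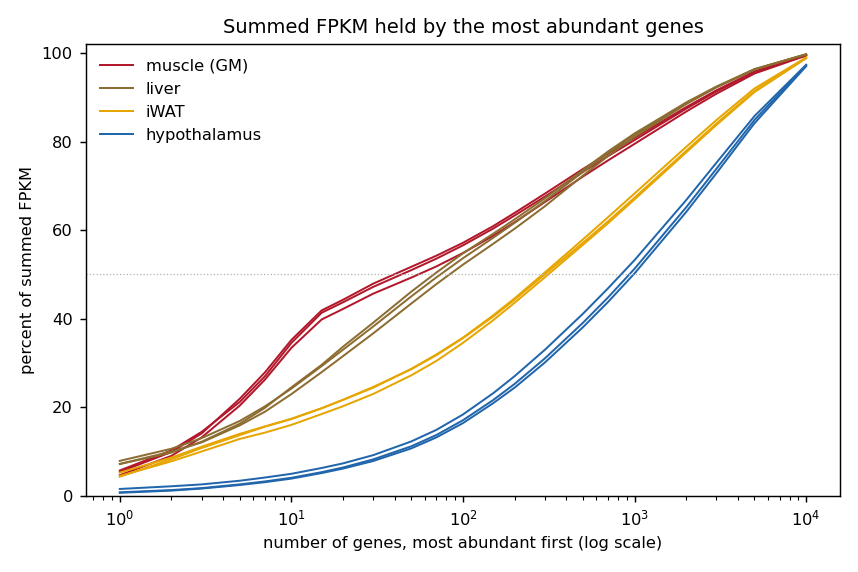
Percent of the summed FPKM of each control library (y axis) held by its most abundant genes (x axis, log scale), with 1 line per library and a dotted line at 50%. Muscle crosses 50% with 40 to 56 genes and hypothalamus with 837 to 988.

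Acta1 (chr8:123891758-123894775), the marker of the tissue, was at 23443, 27517 and 28054 FPKM in muscle Ctrl 1 to 3. It was at 1.17, 3.20 and 3.63 FPKM in liver, at 4.90, 3.99 and 5.95 in hypothalamus, and at 173, 28.5 and 18.6 in iWAT. All 3 muscle libraries lay above the 9 others, and the difference from the mean of the other tissues was 11.38 ± 0.51 (SE; adjusted p = 1.15e-09). Hypothalamus and liver lay next to each other at the low end without overlap, and iWAT lay above both. Ckm (chr7:19411094-19421583), which restores ATP from phosphocreatine, had the largest difference of all genes. It was at 19618, 22620 and 22060 FPKM in muscle and at most 2.88 in liver and hypothalamus, with 108, 15.5 and 9.74 in iWAT (difference 11.84 ± 0.54, adjusted p = 1.29e-09). For both genes the highest value outside muscle was that of iWAT Ctrl 1, and without that library the differences were 11.70 for Acta1 and 12.18 for Ckm. The transcripts whose log2 values followed Acta1 most closely over the 12 libraries were Atp2a1, Ckm, Mylpf, Tnni2 and Tnnt3, with Pearson's r between 0.9976 and 0.9984, a description in which all points share the split between muscle and the rest.

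The 15 enriched genes with the largest difference, from 11.84 for Ckm to 9.84 for Mybpc2, held Ckm, the fast troponins Tnnt3, Tnnc2 and Tnni2, the fast myosin chains Mylpf, Myh4 and Myl1, the reticulum proteins Atp2a1 and Casq1, the calcium buffer Pvalb, Mybpc2 (fast myosin-binding protein C) and the Z-disc proteins Actn3, Myoz1 and Tcap. In each, the 3 muscle libraries lay at or above 1671 FPKM and iWAT Ctrl 1 was the highest fat library. Pvalb (parvalbumin) differed from the rest in hypothalamus, with 19.7, 17.2 and 24.4 FPKM there and at most 1.55 in liver, beside 11823, 12323 and 10533 in muscle. Ckm, Tnnt3 and Atp2a1 each overlap a gene on the opposite strand (A930016O22Rik, Prr33 and Rabep2), and the kit does not mark strand, so reads of such pairs cannot be told apart, as also for Mb, Cox6a2, Sgca, Chrne, Lmcd1, Pfkm and Cmya5 below.

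**Figure D3:**
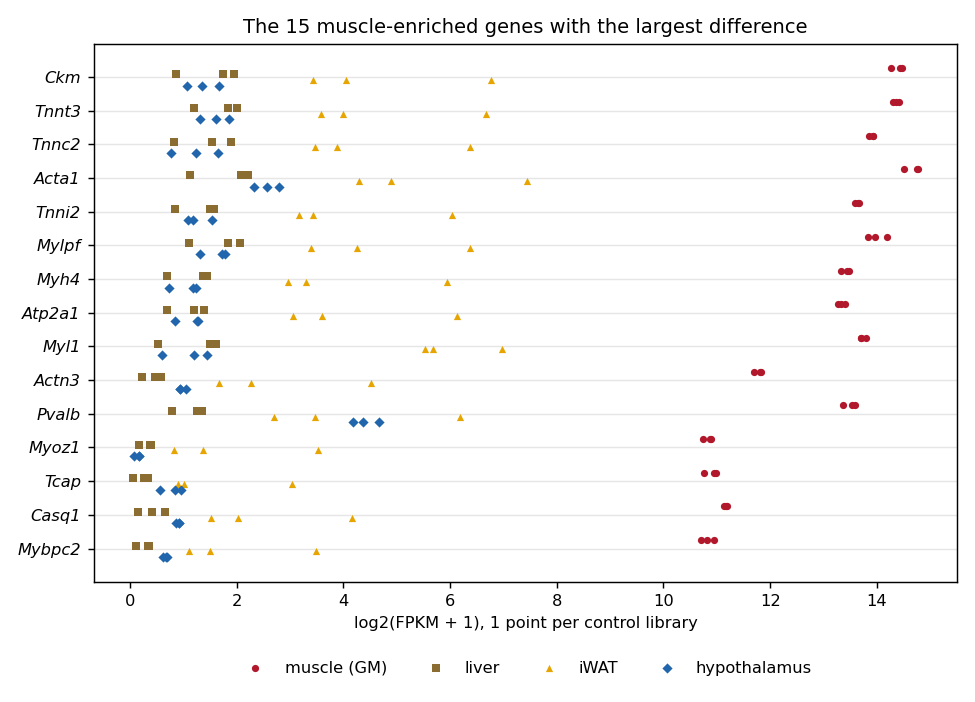
Values of log2(FPKM + 1) of the 15 enriched genes with the largest difference, with 1 point for each control library, coloured by tissue. All muscle points lie above all others, and the highest fat point of each gene is iWAT Ctrl 1, as for Acta1 with 173 FPKM.

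Members of 17 lists of muscle roles, 297 genes in all, were then followed. Of these 286 were tested and 163 (57.0%) were enriched, beside 2.43% of all tested genes. The lists were written for their place in muscle, so that count describes them and is no evidence of its own. Another 210 enriched genes stood in no role list. With median-ratio scaling 23 genes of excitation-contraction coupling were enriched in place of 19, 9 of membrane excitability in place of 7, 12 of the dystrophin complex in place of 9, 10 of glycogen in place of 8 and 15 transcription factors in place of 12, beside 3.6% of all tested genes.

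**Figure D4:**
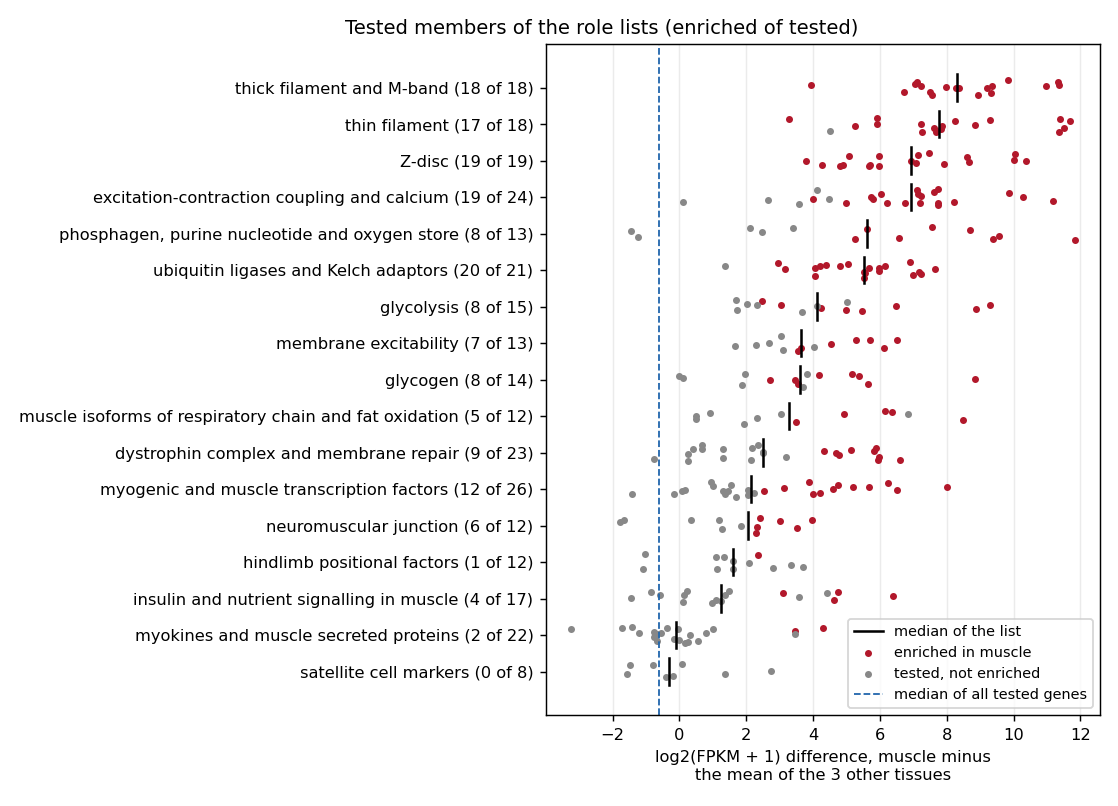
Difference in log2(FPKM + 1) between muscle and the mean of the 3 other tissues for each tested member of 17 role lists, red where enriched, with the median of each list (black bar) and of all tested genes (dashed line, -0.60). Medians run from 8.32 in the thick filament to -0.30 in satellite cell markers.

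All 18 thick filament and M-band genes were enriched, with a median difference of 8.32. Myh4, the heavy chain of the fastest (2B) fibres, was at 10325, 11430 and 11055 FPKM in muscle and at most 1.71 in liver and hypothalamus (difference 11.32 ± 0.48, adjusted p = 7.69e-10). Of the summed FPKM of the 4 adult heavy chains, Myh4 held 85.5%, 86.9% and 85.1% in the 3 muscle libraries, Myh1 (2X) held 5.91% to 6.63%, Myh2 (2A) 4.67% to 5.62% and Myh7 (slow) 2.56% to 3.14%. Slow-fibre light chains were present at lower levels, as in Myl2 with 871, 757 and 571 FPKM. The smallest difference of the list was that of Myom3, an M-band protein, with 3.93.

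Of 18 thin filament genes 17 were enriched (median difference 7.76). Tnnt3 (chr7:142498836-142516009), fast troponin T, was at 21742, 21103 and 20197 FPKM and Tnnc2, fast troponin C, at 15594, 15512 and 14726. Their highest values outside muscle were 100.9 and 82.3, in iWAT Ctrl 1. The exception was Cap2, a cyclase-associated actin regulator, at 80.7, 74.2 and 81.0 FPKM in muscle and 24.5 to 28.6 in hypothalamus, where the difference was 1.53, and with median-ratio scaling it was enriched too. Together the thin filament genes held 20.1% to 20.6% of the FPKM of muscle and at most 0.129% elsewhere. All 19 Z-disc genes were enriched (median 6.93), with Actn3, Myoz1 and Tcap in front and Pdlim5 last. Pdlim5 varied among the muscle libraries, with 248, 235 and 109 FPKM, and all 3 still lay above the other tissues. Actins, myosins and tropomyosins are near copies of each other, and how shared reads were divided between them is not given in the sources used here.

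Excitation-contraction coupling had 19 of 24 genes enriched (median 6.92). Atp2a1, the calcium pump of fast fibres, was at 10266, 9952 and 10893 FPKM and at most 1.60 in liver and hypothalamus. Bin1, Asph, Cacnb1 and Cacna2d1 were higher in muscle than in the mean of the other tissues but missed the limit against hypothalamus or iWAT, which they passed with median-ratio scaling. Mtm1, a phosphoinositide phosphatase, was at 4.07, 4.36 and 3.96 FPKM in muscle and at 2.69 to 4.98 elsewhere (difference 0.12 ± 0.09, adjusted p = 0.241). Of 13 genes of membrane excitability 7 were enriched (median 3.64). Scn4a, the sodium channel of muscle, was at 99.8, 96.1 and 96.6 FPKM and under 1 in each other library. Kcnc4, a potassium channel, was at 31.7, 28.4 and 24.3 FPKM in muscle and at 32.7, 34.2 and 31.3 in hypothalamus, with a difference from hypothalamus of -0.22.

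Of 12 tested genes of the neuromuscular junction, 6 were enriched (median 2.06), among them Rapsn, which clusters acetylcholine receptors (19.7, 18.6 and 18.8 FPKM), and the receptor subunits Chrne and Chrnb1. Agrn (agrin), which nerves secrete onto the junction, was lower in muscle, with 3.92, 3.50 and 4.24 FPKM beside 46.3, 53.4 and 50.1 in hypothalamus (difference from the mean -1.77 ± 0.08, adjusted p = 8.14e-10). Ache, which ends transmission, was at 13.1, 13.6 and 16.02 FPKM in muscle and at 124 to 158 in hypothalamus. Chrng, the fetal receptor subunit, did not reach the limit for testing.

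Of 23 genes of the dystrophin complex and membrane repair, 9 were enriched (median 2.49). Sgca (alpha-sarcoglycan) was at 115, 117 and 118 FPKM in muscle, listed at 0 in all liver libraries and at most 0.831 elsewhere. Dmd (dystrophin) itself was at 9.32, 10.4 and 10.2 FPKM in muscle and at 14.0, 11.9 and 12.1 in hypothalamus, and its difference from the mean was 0.69 ± 0.07. Utrn (utrophin), its wide-ranging relative, was at 3.33, 3.33 and 3.55 FPKM in muscle, above liver (2.04, 2.54 and 2.02) and below iWAT (18.6, 18.1 and 16.3) and hypothalamus (6.97, 5.64 and 5.35), with a difference from the mean of -0.76 ± 0.08. Dag1 (dystroglycan) was split within tissues, with 9.37, 64.9 and 62.5 FPKM in muscle and 74.2, 60.2 and 9.84 in iWAT, and no difference of it was called.

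Of 15 tested glycolysis genes 8 were enriched and 15 were higher than the mean of the other tissues, beside 8.74% of all tested genes (median 4.11). Pgam2, muscle phosphoglycerate mutase, was at 1795, 2092 and 1907 FPKM and at most 12.9 elsewhere. Eno3, muscle enolase, was at 4513, 4961 and 4366. Slc2a4, the insulin-regulated glucose transporter GLUT4, was at 207, 208 and 214 FPKM in muscle and at 143, 87.1 and 102 in iWAT, so that it was not enriched, and liver held at most 0.0913. Gpd1, the least different of the list, was higher in iWAT (1065, 627 and 532 FPKM) than in muscle (317, 377 and 352). For glycogen 8 of 14 genes were enriched (median 3.62), with Pygm, muscle phosphorylase, at 3017, 3031 and 3667 FPKM and at most 26.7 in any other library.

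Among phosphagen, purine nucleotide and oxygen store genes 8 of 13 were enriched (median 5.60) and Gamt and Gatm, which make creatine, were lower than the mean of the other tissues. Gamt, whose product reaches muscle from other organs, was at 11.1, 11.1 and 14.2 FPKM in muscle, and at 114.5, 92.8 and 96.5 in liver. Mb (myoglobin) was at 810, 1739 and 943 FPKM, so that muscle Ctrl 2 was the highest, and all 3 lay above 4.47, the highest value elsewhere. Among forms of the respiratory chain and fat oxidation 5 of 12 were enriched (median 3.27), and 9 against liver and hypothalamus alone, beside 3.29% of all tested genes. Cox6a2 was at 890, 895 and 1101 FPKM. Cox8b was at 675, 737 and 683 FPKM in muscle and at 272, 183 and 119 in iWAT, a difference of 1.94 that fell short of the limit. Without iWAT Ctrl 1 that difference was 2.23 and Cox8b was enriched, as was Gyg (glycogenin) of the glycogen list, beside 2.45% of all tested genes. Lpl (lipoprotein lipase) was lower in muscle (189, 185 and 154 FPKM) than in iWAT (2332, 1661 and 2035).

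Ubiquitin ligases and Kelch adaptors, which turn over and chaperone sarcomere proteins, had 20 of 21 members enriched (median 5.53). Trim54 was at 218, 220 and 253 FPKM, Klhl41 at 223, 190 and 190 and Asb2 at 248, 287 and 342. The atrophy-linked ligases Trim63 (MuRF1) and Fbxo32 (atrogin-1) were at 139, 132 and 158 and at 39.1, 37.8 and 43.9. The exception was Asb8, with a difference of 1.37.

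Of 26 tested transcription factors 12 were enriched (median 2.14). Ankrd23, an ankyrin repeat protein of the I-band and nucleus, was the highest, at 1216, 1263 and 1214 FPKM. Of the 4 myogenic bHLH factors Myf6 was at 49.3, 55.9 and 50.8 FPKM, Myod1 at 16.1, 13.6 and 16.2 and Myog at 6.35, 4.71 and 4.04, all enriched, whereas Myf5 was at 0.968, 0.490 and 0.651 and was not tested. Ppargc1a (PGC-1alpha) was at 6.30, 6.90 and 6.28 FPKM beside 7.48, 5.04 and 4.43 in hypothalamus, which overlapped. Of 8 tested satellite cell markers 0 were enriched (1 with median-ratio scaling), while 2 were higher and 2 lower than the mean, beside 8.74% and 30.8% of all tested genes. Pax7 was at 0.712, 0.591 and 0.613 FPKM in muscle and not tested, and Cdh15 (M-cadherin) was at 7.85, 7.96 and 9.88.

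Of 12 tested hindlimb positional factors 1 was enriched, 10 were higher than the mean of the other tissues and 2 were lower, beside 2.43%, 8.74% and 30.8% of all tested genes. With median-ratio scaling 3 were enriched, beside 3.6% of all tested genes, and 6 were enriched against liver and hypothalamus alone, beside 3.29%. The enriched member was Hoxc11, at 4.71, 3.60 and 4.50 FPKM. Hoxc10 was at 32.9, 29.9 and 34.9 FPKM in muscle, at 18.7, 15.2 and 16.4 in iWAT and listed at 0 in all liver and hypothalamus libraries. Hoxc8 went the other way, with 0.595, 0.516 and 0.270 FPKM in muscle and 33.2, 23.4 and 28.4 in iWAT (difference from iWAT -4.32, adjusted p = 2.79e-11).

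Of 22 tested myokines and secreted proteins 2 were enriched, Mstn (myostatin, a brake on muscle growth) at 17.8, 17.6 and 22.5 FPKM and Ostn (musclin) at 17.6, 9.20 and 6.13, beside 2.43% of all tested genes, and the median difference of the list was -0.10 beside -0.60, and 0.26 beside -0.23 with median-ratio scaling. Fndc5, the precursor of irisin, was at 36.7, 40.7 and 36.9 FPKM in muscle and 30.2, 24.7 and 24.9 in hypothalamus. Angptl4 was at 3.76, 5.91 and 2.57 FPKM in muscle, 61.6, 77.5 and 96.2 in liver, 312, 249.7 and 369 in iWAT and 2.57, 2.98 and 3.73 in hypothalamus. Its difference from the mean (-3.23 ± 0.19) was the lowest of the list, while muscle and hypothalamus overlapped. Gdf15 and Fgf21, the stress hormones that the study follows in LKO mice, were low in control muscle: Gdf15 was at 0.0819, 0.192 and 0.238 FPKM, and at 2.73, 3.67 and 2.96 in liver, and Fgf21 at 0.0425, 0.0677 and 0 and was not tested.

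Of 17 genes of insulin and nutrient signalling 4 were enriched (median 1.25): Prkag3 and Prkab2, AMPK subunits of muscle, Prkaa2 and Lmcd1. Prkag3 was at 114, 92.2 and 93.6 FPKM and at most 1.11 elsewhere. Pdk4, which shuts pyruvate out of oxidation, was at 58.3, 176 and 165 FPKM, so that muscle Ctrl 1 was at the level of iWAT (73.3, 55.8 and 63.9). Slc7a5 was at 0.919, 0.531 and 0.873 FPKM in muscle, which overlapped liver (0.882 to 1.12) and iWAT (0.829 to 1.49), and at 22.1 to 29.3 in hypothalamus.

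Family members were set side by side in 26 gene families with a form known from muscle. That form held over 90% of the FPKM of its family in all 3 muscle libraries in 20 families and over 50% in 25. Its median share over the families was 98.2% in muscle, 1.51% in liver, 23.3% in iWAT and 3.71% in hypothalamus. In 19 families the share in all 3 muscle libraries lay above that in the 9 others. Acta1 held 98.97% to 99.22% of the actins counted with Actb and Actg1 in muscle, and at most 17.6% elsewhere, in iWAT. The cardiac actin Actc1, at 565, 1178 and 601 FPKM in muscle, was not counted there and would lower that share. Eno3 held 98.4% to 98.7% of the enolases and Pfkm 99.5% to 99.7% of the phosphofructokinases, the latter beside 61.5% to 63.6% in hypothalamus. Ldha held 89.2% to 91.2% of the lactate dehydrogenases in muscle, 99.6% to 99.7% in liver, 91.1% to 92.7% in iWAT and 27.0% to 33.5% in hypothalamus. The exception was Tpm2, with 8.1% to 9.3% of the tropomyosins, where Tpm1 at 20697, 20587 and 17964 FPKM was the main form.

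**Figure D5:**
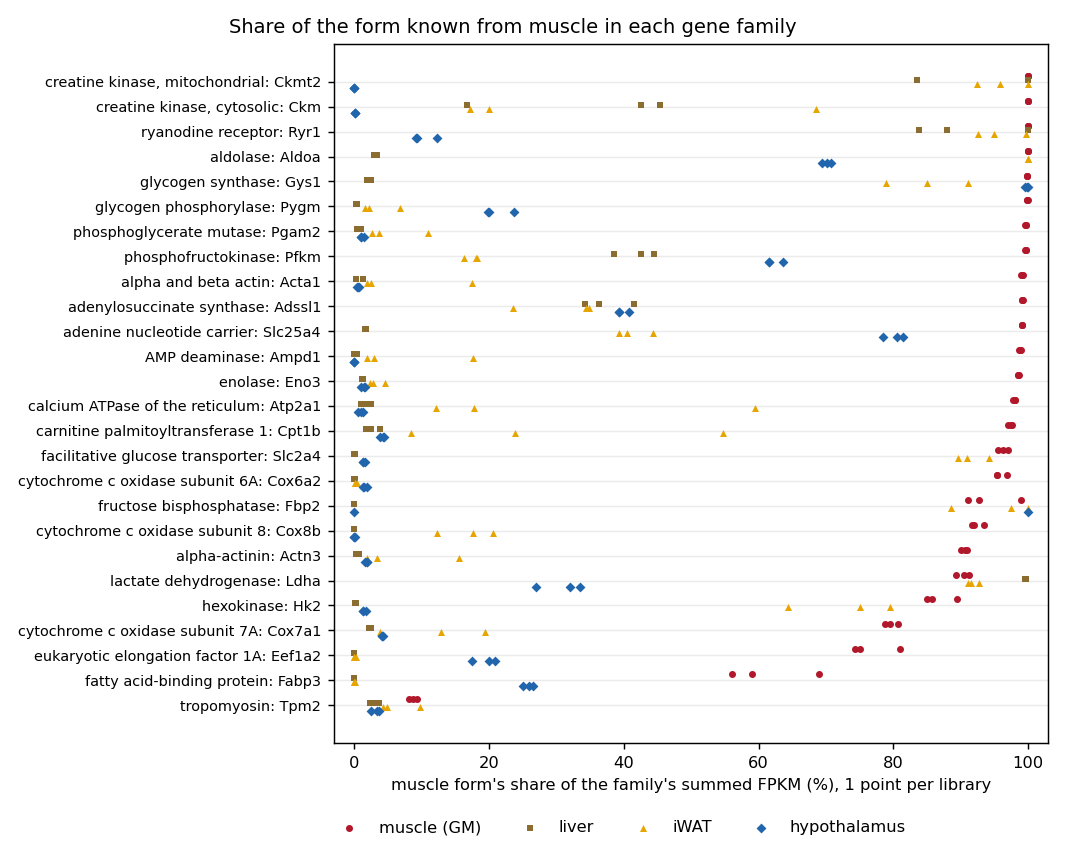
Percent of the summed FPKM of each of 26 gene families held by the form known from muscle, with 1 point per control library, coloured by tissue (libraries with the whole family at 0 have no point). In 20 families all 3 muscle points lie above 90%.

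Of the 45 other members of these families that were tested, 30 were lower in muscle than in the mean of the other tissues and 6 were higher, beside 30.8% and 8.74% of all tested genes. After median-ratio scaling 28 were lower and 6 higher, beside 3009 lower and 2180 higher among all tested genes, so the 6 higher members were near the general share. Pgam1, Cox6a1, Cox8a, Eef1a1, Ampd2 and Slc25a5 were lowest in muscle by the rule for all 3 tissues, beside 0.764% of all tested genes. With median-ratio scaling 3 of them, Pgam1, Cox6a1 and Cox8a, were, beside 38 genes among all tested. In the other direction 3 of the 45, Tpm1, Tpm3 and Actn2, were enriched, beside 2.43% of all tested genes. Cox8a, the general form of the subunit beside Cox8b, had a mean of 58.0 FPKM in muscle and of 352 in liver, 920 in iWAT and 522 in hypothalamus. For Eef1a1, the general translation elongation factor, the means were 229 FPKM in muscle and 2343 in liver, 2440 in iWAT and 1670 in hypothalamus, while Eef1a2 had 753 in muscle and 406 in hypothalamus.

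Outside the lists the largest differences belonged to Rpl3l, H19, Sh3bgr, Cmya5, Ppp1r27, Dhrs7c, Apobec2 and Hspb7. Rpl3l, a muscle form of ribosomal protein L3, was at 382, 377 and 379 FPKM and at most 2.28 elsewhere (difference 8.14 ± 0.22, adjusted p = 1.83e-11). H19, an imprinted long noncoding RNA that hosts Mir675, was at 452, 557 and 404 FPKM in muscle, 4.59, 6.92 and 2.58 in iWAT and at most 1.73 in liver and hypothalamus. Dhrs7c, a reductase of the sarcoplasmic reticulum, was at 231, 217 and 188 FPKM and listed at 0 in all liver libraries.

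Other genes passed the limit of 2 against all but 1 tissue. Of the 15320 tested genes, 131 were higher than in liver and hypothalamus but not called against iWAT. Another 183 were higher than in liver and iWAT but not called against hypothalamus. A further 27 were higher than in iWAT and hypothalamus but not called against liver. Such genes can still be higher in muscle than in the remaining tissue, as Cox8b was by 1.94 against iWAT. Camk2a, a kinase on the neuron list, belonged to the second set, with 126, 129 and 142 FPKM in muscle and 131, 105 and 96.5 in hypothalamus. The neuron marker Snap25 was at 1.25, 0.0303 and 0 FPKM in muscle. Of the 10 neuron markers 4 reached 1 FPKM in muscle Ctrl 1, beside 2 in Ctrl 2 and 2 in Ctrl 3. Listed at 0 were 0, 4 and 5 of them, so muscle Ctrl 1 stood apart, and the cause was not tested.

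The genes lowest in muscle were led by Apoe, Trf, Pgrmc1, Fah and Serpina3n. Apoe (apolipoprotein E) was at 155, 144 and 110 FPKM in muscle, 15371, 14725 and 14130 in liver, 4998, 5735 and 5726 in iWAT and 1863, 1976 and 2490 in hypothalamus (difference -5.35 ± 0.13, adjusted p = 1.09e-11). Trf (transferrin) was at 41.6, 28.0 and 28.8 FPKM in muscle and at least 153 elsewhere. Pgrmc1, a heme-binding membrane protein, was at 10.03, 6.57 and 7.25, and Fah, the last enzyme of tyrosine breakdown, at 3.58, 2.15 and 2.61. The protease inhibitor Serpina3n was at 2.80, 2.51 and 2.40 FPKM in muscle and at least 25.8 elsewhere. With median-ratio scaling 38 genes in place of 117 were lowest, 35 of them shared, and of the 5 named Trf and Fah were no longer called. All 5 were highest in muscle Ctrl 1, which had the highest Alb, but Apoe and Serpina3n were lowest in muscle Ctrl 3, whose Alb was above that of muscle Ctrl 2. The part of hepatocyte RNA in these low levels was not tested.

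Crif1 (Gadd45gip1), the floxed gene, was at 15.9, 13.5 and 12.9 FPKM in muscle, which overlapped liver (14.6, 12.5 and 13.6) and iWAT (15.99, 11.6 and 13.2) and lay below hypothalamus (25.1, 25.9 and 28.0). Its difference from the mean was -0.25 ± 0.09 (adjusted p = 0.0217), and scaling turned it to 0.27 with median ratios and to 0.24 with quantile normalization, so no direction is given.

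The ratio of the highest to the lowest muscle library had a median of 1.17 over the 373 enriched genes and was over 2 in 20 of them (5.36%). Over the 4161 tested genes with a mean of at least 10 FPKM in muscle it had a median of 1.14 and was over 2 in 81 (1.95%). The enriched genes had no such floor, and 44 of them had a mean under 10 FPKM, so these shares are not like for like. Chosen after their values were seen, Nmrk2, a nicotinamide riboside kinase, was at 40.0, 26.4 and 127 FPKM, Sln (sarcolipin, an inhibitor of the calcium pump) at 58.7, 47.2 and 14.2 and Smox (spermine oxidase) at 164, 212 and 393. Muscle Ctrl 3 stood apart in these genes, whereas Mb and Actc1 were highest in muscle Ctrl 2, with 565, 1178 and 601 FPKM for Actc1 (cardiac alpha-actin).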

How the data were processed

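The authors deposited FPKM per gene in a joined table (mm10, NCBI Gene identifiers) and, for each library, coverage, FPKM and TPM in the layout of StringTie. The submitters' processing notes name Trimmomatic 0.32, FastQC 0.11.5, HISAT2 2.0.5, STAR 2.5.2b, Bowtie2 2.2.6 and StringTie 1.3.3b without roles. Libraries were made with an unstranded TruSeq RNA kit. No scaling between libraries is stated. Depth was inferred from the ratio of the deposited FPKM to the deposited coverage, and counting error cannot be given.

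The 12 control columns were used and 12 LKO columns were not. With limma 3.58.1 in R 4.3.3 (lmFit, eBayes with trend), 1 fit of 4 tissue means on log2(FPKM + 1) tested genes that reached 1 FPKM in 3 libraries or more. P-values are two-sided and Benjamini-Hochberg adjusted over 15320 genes per contrast. In simulated data of 13562 genes, 100 of 100 genes raised and 100 of 100 lowered by 3 on the log2 scale were called. That size lay past the limit of 2, so full recovery was likely and says little of changes near the limit. A gene low in the other tissues cannot fall by 3 on log2(FPKM + 1), so lowest calls of such genes were not tested. Alternatives used the deposited TPM, other scalings, filters, pseudocounts and limits, and each library left out in turn. Python 3.11.15 with pandas 2.3.3 made the tables. List symbols were matched by NCBI Gene identifier.

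The comparison, lists and families were chosen with earlier results of these data known. Named genes are the 15 largest enriched, the 8 largest outside lists, the 5 lowest, per role list the 3 largest and the 1 lowest, the families and Gadd45gip1, and further list members were chosen after their values were seen.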

Additional observations from a re-analysis of the deposited data

How the results depend on the processing

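Leaving out 1 library at a time gave 369 to 377 enriched and 107 to 126 lowest genes, and 5418 to 5476 genes called against liver, 5852 to 6110 against iWAT, 8414 to 8557 against hypothalamus and 5967 to 6184 against the mean. Enriched genes numbered 707 with a limit of 1 and 242 with a limit of 3, 551 with median-ratio scaling (369 of the 373 shared) and 520 with quantile normalization (366 shared). Lowest genes numbered 805 with a limit of 1 and 11 with a limit of 3, 310 with a pseudocount of 0.1, 191 with TPM, 38 with median-ratio scaling, 32 with quantile normalization and 283 without iWAT as a comparison tissue. A minimum mean of 5 FPKM, which tests fewer genes, gave 5319 genes against hypothalamus in place of 8484. Pooling the 9 other libraries as 1 group, which adds the spread between tissues, gave 2477 against the mean in place of 6059. Where no cause is named it was not tested.

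Same-numbered libraries did not deviate together throughout (residual correlations -0.11 to 0.23), so the numbers were not taken as pairs, and whether they mark shared animals is unknown. With a replicate block 373 genes were enriched, the same genes, 118 were lowest, and 5449, 5982, 8492 and 6062 were called against liver, iWAT, hypothalamus and the mean.

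Of the differences of named genes under the alternatives, 2908 kept their sign and their side of an adjusted p of 0.05 against the mean, 46 lost that significance, 18 gained it and 16 changed sign. This counts no enriched or lowest calls: with median-ratio scaling Trf, Fah, Eef1a1, Ampd2 and Slc25a5 were no longer lowest. Ppp1r3d went from -0.01 to 0.56 (pseudocount 0.1), 0.0253 (TPM), 0.51 (median ratio) and 0.67 (quantile), and lay between -0.1633 and 0.2254 without 1 library (0.0728 without iWAT Ctrl 1, 0.0023 without hypothalamus Ctrl 1). Slc2a3, at 0.02, lay between -0.0755 and 0.1849 without 1 library and was below 0 without muscle Ctrl 1 or 2, iWAT Ctrl 1 or 2 or hypothalamus Ctrl 3. Fabp1 went from -1.15 to 0.30 (pseudocount 0.1), Tpm4 from -0.49 to 0.0492 (median ratio) and Gadd45gip1 from -0.25 to 0.27 and 0.24 (median ratio and quantile). Genes near 1 FPKM are the least certain, since depth per gene is unknown.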
